A study of Bos taurus with 8 samples.

Results

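The genes described here are the collagen hydroxylases and lysyl oxidases: P4HA1, P4HA2 and P4HA3, PLOD1, PLOD2 and PLOD3, and LOX, LOXL1, LOXL2 and LOXL4. These 10 of the 28709 genes in the deposited table were picked by symbol. The family was taken up because P4HA3 had the largest named increase with progesterone, so the P4HA3 difference is given as a description without a test. P4HA3 ranked 1 by fold change among tested genes with a mean of at least 1 CPM (counts scaled to library size) in a group.

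Collagen chains are modified in the endoplasmic reticulum before they fold into a triple helix. Prolyl 4-hydroxylase, a complex of a P4HA subunit with P4HB, hydroxylates proline and so stabilizes the helix at body temperature. The PLOD enzymes hydroxylate lysine in the chain. Outside the cell, LOX and its relatives oxidize lysine and hydroxylysine so that collagen and elastin molecules become cross-linked. The hydroxylases need iron, oxoglutarate, oxygen and ascorbate, and the oxidases need copper.

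RNA came from BUTE cells, an immortalized uterine epithelial line made from a Holstein cow and labelled wild type. Cells were kept for 24 h without serum or steroids and with insulin-like growth factor 1 (IGF1), then received 10 µM progesterone or the vehicle DMSO for 24 h. Both groups had IGF1 at 50 ng/ml throughout the treatment. There were 4 libraries with progesterone and 4 with DMSO. The deposited columns name the progesterone libraries R1, R2, R3 and R6 and the DMSO libraries R1, R3, R7 and R9. The labels do not state that replicates were separate cultures, so p-values measure the spread between these libraries, which may be technical.

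Libraries held 23810861 to 32509786 estimated counts. DMSO R7 and R9 stood apart: they correlated with each other at 0.992 across genes and with the other 6 libraries at 0.949 to 0.962, and those 6 correlated at 0.983 to 0.992. Results are therefore also given without R7 and R9, which leaves 2 DMSO libraries. Of the 6 epithelial markers, the keratin KRT8 averaged 1739.5 CPM with progesterone and 2481 CPM with DMSO, and KRT19 averaged 472 CPM with progesterone and 446 CPM with DMSO. KRT7 averaged 20.1 CPM with progesterone and 17.3 CPM with DMSO, and the adhesion molecule CDH1 16.3 CPM with progesterone and 12.7 CPM with DMSO. KRT18 averaged 1.43 CPM with progesterone and 4.06 CPM with DMSO, and the adhesion molecule EPCAM 0.426 CPM with progesterone and 1.42 CPM with DMSO. The higher DMSO means of KRT18 and EPCAM lay in R7 and R9: KRT18 averaged 6.40 CPM there, against 1.72 CPM in DMSO R1 and R3, and EPCAM 2.25 CPM, against 0.585 CPM. For KRT7 and KRT19, R7 and R9 were the low pair: KRT7 averaged 5.89 CPM there, against 28.6 CPM in DMSO R1 and R3, and KRT19 257 CPM, against 635 CPM. None of the 6 passed in edgeR (3 had an unadjusted p under 0.05, against 26.8% of all genes tested). With all libraries 3 were higher and 3 lower on average with progesterone. Without R7 and R9, KRT7 and KRT19 turned from log2 fold changes of 0.22 and 0.081 to -0.50 and -0.42. CDH1 alone was then higher, at 0.18. KRT8 alone had no overlap between the groups, which held for 16.2% of all genes tested. The sum of the 6, of which KRT8 was the largest term, was 1739 to 2659 CPM with progesterone and 2821 to 3073 CPM with DMSO. The 6 fibroblast markers were all detected and summed to 7352 to 8141 CPM with progesterone and 6750.2 to 7493 CPM with DMSO. None passed in edgeR (2 had an unadjusted p under 0.05, against 26.8% of all genes tested). VIM and DCN were higher on average with progesterone (log2 fold change 0.10 and 0.024), and LUM, PDGFRA, PDGFRB and THY1 were lower (-0.51, -0.45, -0.069 and -0.18). THY1 turned to 0.16 without R7 and R9. DCN was at 866 CPM on average in DMSO R1 and R3 and at 274 CPM in R7 and R9, and its log2 fold change was -0.56 with these left out. The 5 smooth muscle markers summed to 1572 to 2109.7 CPM with progesterone and 2094 to 2922 CPM with DMSO. The 4 endothelial markers reached at most 5.87 CPM with progesterone and 4.44 CPM with DMSO, and the 3 leukocyte markers at most 13.9 CPM with progesterone and 13.1 CPM with DMSO, with PTPRC at 0 in all libraries. The part of these shifts in the results that follow was not tested. In bulk RNA, fewer cells of a type and less RNA per cell cannot be told apart.

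P4HA3 (Entrez Gene 414348, chromosome 15) encodes an alternative catalytic subunit of prolyl 4-hydroxylase. Its level was 34.4, 11.4, 23.7 and 20.2 CPM in progesterone R1, R2, R3 and R6, and 1.16, 1.21, 2.24 and 3.18 CPM in DMSO R1, R3, R7 and R9. All 4 progesterone libraries lay above all 4 DMSO libraries, with progesterone R1 the highest and R2 the lowest of their group. The deposited estimated counts behind these levels were 1127, 287, 675 and 488 with progesterone and 33.9, 32.5, 65.6 and 84.0 with DMSO. The means were 22.4 ± 9.54 CPM with progesterone and 1.95 ± 0.959 CPM with DMSO (SD, n = 4 each). P4HA3 thus had a log2 fold change of 3.53 (11.5-fold), with a standard error of 0.42 and a 95% interval of 2.59 to 4.47. DMSO R7 and R9, the libraries that stood apart, were the higher pair of the DMSO group. Without them the log2 fold change was 4.25 (19.1-fold), with an interval of 3.08 to 5.42. Because P4HA3 was chosen for this difference, both intervals describe spread only, lack their nominal coverage and serve as no test. The spread within groups was wide: the highest library was 3.03 times the lowest with progesterone and 2.74 times with DMSO.

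P4HA1 (518288, chromosome 28) and P4HA2 (507327, chromosome 7) encode the main catalytic subunits. P4HA1 was at 122, 128, 161 and 135 CPM with progesterone R1, R2, R3 and R6, and at 152, 202, 184 and 196 CPM with DMSO R1, R3, R7 and R9. The groups overlapped, since progesterone R3 lay above DMSO R1. P4HA2 was at 247, 246, 303 and 261 CPM with progesterone and at 318, 346, 371 and 404 CPM with DMSO, in the same order of libraries. Here every progesterone library was below every DMSO library, as at 8.22% of all genes tested. On the log2 scale the fold change was -0.43 ± 0.12 for P4HA1 (SE, edgeR adjusted p = 0.0726) and -0.45 ± 0.10 for P4HA2 (SE, edgeR adjusted p = 0.0520). Neither passed the threshold of 0.05 with all 8 libraries, where 2.65% of the 13557 genes tested were called. Without DMSO R7 and R9 the values were -0.37 (95% interval -0.67 to -0.07) for P4HA1 and -0.32 (-0.55 to -0.09) for P4HA2, with edgeR adjusted p of 0.227 and 0.173. Without DMSO R1, where 13% of genes were called, both passed (edgeR adjusted p = 0.0243 for P4HA1 and 0.0240 for P4HA2), and without DMSO R3, where 5.78% were, P4HA2 passed (0.0482). Over the 20 alternatives without a replicate block, adjusted p ranged from 0.0136 to 0.227 for P4HA1 and from 0.00220 to 0.173 for P4HA2, and the lowest of these was DESeq2's for both.

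The ratio of P4HA1 to P4HA2 within a library, which no scaling of libraries can change, was steady. Relative to the DMSO mean, its log2 value was between -0.047 and 0.067 with progesterone and between -0.090 and 0.20 with DMSO. The difference between the groups was 0.016 (SD 0.047 with progesterone and 0.14 with DMSO, exact permutation p = 0.914, two-sided). P4HA3 moved apart from both: the log2 ratio of P4HA1 to P4HA3 was between -4.87 and -3.20 relative to its DMSO mean in the progesterone libraries, and that of P4HA2 to P4HA3 between -4.82 and -3.23. These ratios rest on the contrast by which P4HA3 was chosen and were not tested.

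**Figure D1:**
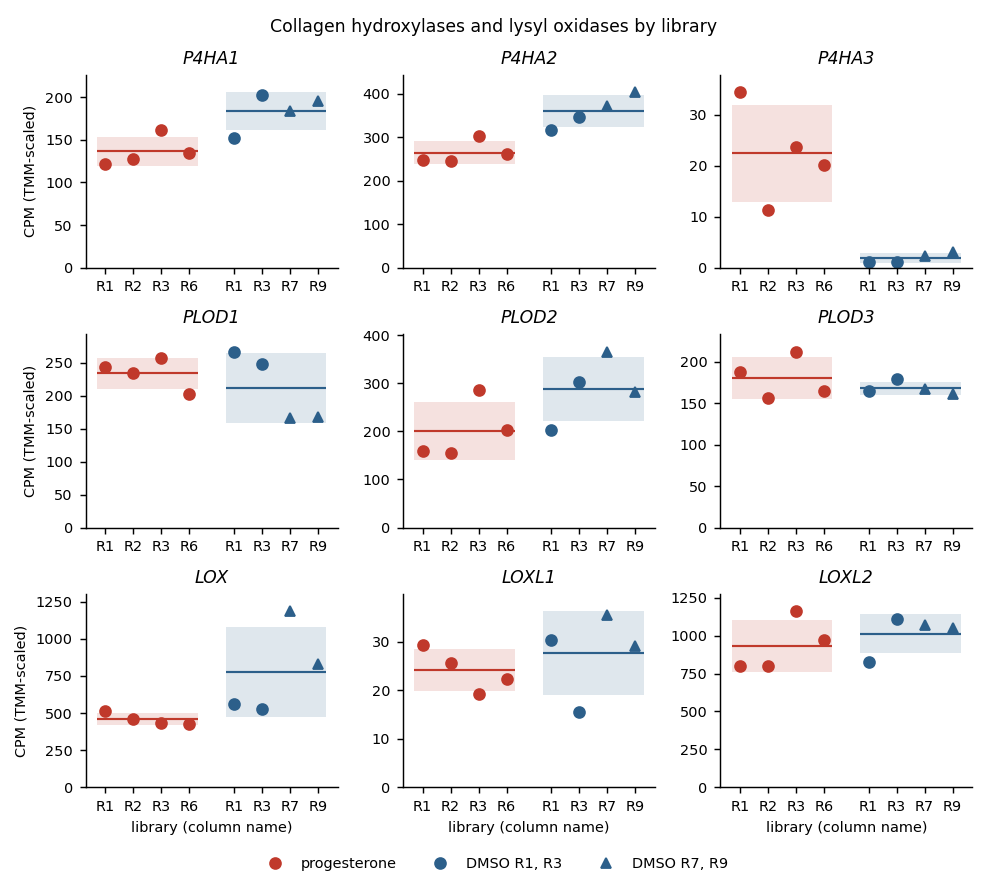
TMM-scaled CPM of the 9 detected genes in each library, one panel per gene with its own axis from 0. Points are libraries, lines are group means and bands are ± 1 SD (n = 4 each). P4HA3 lies between 11.4 and 34.4 CPM with progesterone and between 1.16 and 3.18 CPM with DMSO, while LOX in DMSO R7 and R9 (triangles) lies at 1185 and 828 CPM, above the other 6 libraries.

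None of the 3 lysyl hydroxylases passed in edgeR with all libraries (1 had an unadjusted p under 0.05, against 26.8% of all genes tested). PLOD1 (281409, chromosome 16), which acts mainly on lysines of the triple helix, was at 243, 234, 257 and 202 CPM with progesterone R1, R2, R3 and R6 and at 266, 248, 165 and 167 CPM with DMSO R1, R3, R7 and R9. DMSO R7 and R9 were the lowest of the 8 libraries, and the other DMSO libraries lay within or above the progesterone range. Its log2 fold change was 0.14 (95% interval -0.22 to 0.51) with all libraries and -0.12 (-0.36 to 0.11) without R7 and R9, so its sign rests on these libraries.

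PLOD2 (533642, chromosome 1) hydroxylates lysines of the telopeptides, the ends through which fibrils are cross-linked. It was at 159, 156, 287 and 203 CPM with progesterone R1, R2, R3 and R6 and at 203, 304, 366 and 282 CPM with DMSO R1, R3, R7 and R9. The progesterone libraries R1 and R2 lay below all DMSO libraries, progesterone R6 was level with DMSO R1, and progesterone R3 lay within the DMSO range. PLOD2 had a log2 fold change of -0.52 ± 0.22 (SE, edgeR adjusted p = 0.175), and -0.32 (95% interval -0.93 to 0.29) without R7 and R9. The highest library was 1.84 times the lowest within the progesterone group and 1.80 times within the DMSO group.

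PLOD3 (514996, chromosome 25), which also adds sugars to hydroxylysine, was at 188, 157, 212 and 165 CPM with progesterone R1, R2, R3 and R6 and at 165, 179, 167 and 162 CPM with DMSO R1, R3, R7 and R9. The DMSO libraries lay within the progesterone range. Its log2 fold change was 0.10 (95% interval -0.13 to 0.33), and 0.08 (-0.18 to 0.35) without R7 and R9. The log2 ratio of PLOD2 to PLOD3 differed by -0.63 between progesterone and DMSO on average (SD 0.30 with progesterone and 0.34 with DMSO, exact permutation p = 0.0571), and by -0.41 against DMSO R1 and R3 alone. With p adjusted over the 7 ratios tested, this was 0.200. A lone ratio could not pass after this adjustment, so the adjusted value decides nothing here.

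Among the lysyl oxidases, LOX (280841, chromosome 7), the founding enzyme of the family, was at 515, 463, 431 and 424 CPM with progesterone R1, R2, R3 and R6. In DMSO R1, R3, R7 and R9 it was at 563, 524, 1185 and 828 CPM. All progesterone libraries were below all DMSO libraries, as at 8.22% of all genes tested, and most of the distance came from R7 and R9. The means were 458 ± 41.4 CPM with progesterone and 775 ± 305 CPM with DMSO (SD, n = 4 each). This gave a log2 fold change of -0.76 ± 0.23 (SE, edgeR adjusted p = 0.0900) and did not pass. Without R7 and R9 it was -0.23 ± 0.10 (SE, edgeR adjusted p = 0.308). Leaving out DMSO R1 or DMSO R3 instead, with R7 and R9 kept, brought LOX past the threshold. The values were -0.88 and -0.90 (edgeR adjusted p = 0.0391 and 0.0445), in fits that called 13% and 5.78% of all genes tested. Over the 20 alternatives without a replicate block the adjusted p of LOX ranged from 0.0132 to 0.368.

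LOXL2 (532684, chromosome 8), an oxidase that also acts on basement membrane collagen, was at 802, 803, 1161 and 971 CPM with progesterone R1, R2, R3 and R6. In DMSO R1, R3, R7 and R9 it was at 825, 1110.3, 1071 and 1050.0 CPM. The groups overlapped over nearly their whole range, and the log2 fold change was -0.12 (95% interval -0.44 to 0.20), and -0.04 (-0.42 to 0.34) without R7 and R9. LOXL1 (281903, chromosome 21), which is needed for elastic fibres in mice, was at 29.3, 25.7, 19.2 and 22.3 CPM with progesterone and at 30.4, 15.4, 35.6 and 29.1 CPM with DMSO. DMSO R3 was the lowest and DMSO R7 the highest of the 8 libraries. LOXL1 had a log2 fold change of -0.20 (-0.71 to 0.32), and 0.09 (-0.50 to 0.68) without R7 and R9, so its sign turned.

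LOXL4 (281904, chromosome 26) was at the limit of detection. Its estimated counts were 0, 0, 0 and 0.885 in progesterone R1, R2, R3 and R6, and 1.12, 1.14, 0 and 1.79 in DMSO R1, R3, R7 and R9, all under 3 counts. It was removed by the filter on low counts, so no fold change is given. LOXL3, the remaining enzyme of the family, was at 48.8, 40.5, 45.4 and 60.6 CPM with progesterone and at 37.3, 28.4, 38.0 and 43.5 CPM with DMSO. Progesterone R2 lay below DMSO R9, the only point of overlap between the groups. LOXL3 had a log2 fold change of 0.41 ± 0.15 (SE, edgeR adjusted p = 0.130), and 0.58 without R7 and R9 (0.137).

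**Figure D2:**
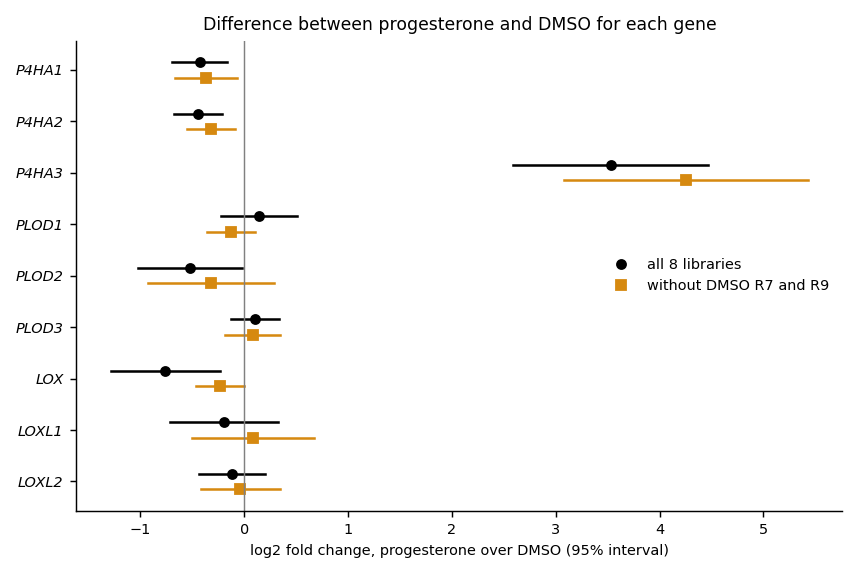
Log2 fold change of each gene, progesterone over DMSO, with its 95% interval, for all 8 libraries (black circles) and without DMSO R7 and R9 (orange squares). P4HA3 stands at 3.53 and 4.25, and its intervals serve as no test because it was chosen for this difference. P4HA1 and P4HA2 lie below 0 in both, LOX stands at -0.76 (circle) and -0.23 (square), and PLOD1 and LOXL1 change sign.

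Of the 10 genes, 9 passed the filter on low counts. Of the 8 tested genes other than P4HA3, 0 passed in edgeR with all libraries, where 2.65% of genes were called, and 0 passed without R7 and R9, where 1.18% were. An unadjusted p under 0.05 was found for 4 of the 8 (P4HA1, P4HA2, PLOD2 and LOX), against 26.8% of all genes tested. DESeq2 called 3 of the 8 (P4HA1, P4HA2 and LOX), against 13.5% of all genes tested, and limma voom 0, against 2.04%. P4HA2 and LOX were the 2 of 8 whose groups did not overlap, both lower with progesterone. The groups did not overlap at 16.2% of all genes tested, and 8.22% were without overlap and lower. The median log2 fold change of the 8 was -0.31, and 6 were below 0, against a median of -0.0072 over all genes tested. Without R7 and R9 it was -0.18, against 0.011.

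Ratios between members of the same enzyme family were compared for 7 pairs without P4HA3, with the exact permutation test over libraries, in which 4 against 4 cannot go below 0.0286. No pair passed after adjustment over the 7. A lone pair at this floor could not have passed either, so no conclusion is drawn from the adjusted values. LOX to LOXL1 differed by -0.54 between progesterone and DMSO on the log2 scale (exact permutation p = 0.0857, adjusted 0.200) and LOX to LOXL2 by -0.56 (exact permutation p = 0.114, adjusted 0.200). Against DMSO R1 and R3 alone these differences were -0.39 for LOXL1 and -0.20 for LOXL2. PLOD1 to PLOD2 was higher by 0.71, and by 0.21 against DMSO R1 and R3 alone (exact permutation p = 0.114 with all libraries, adjusted 0.200). PLOD1 to PLOD3 differed by 0.078 with all libraries and by -0.20 against DMSO R1 and R3 alone. LOXL1 to LOXL2 differed by -0.022, with an SD of 0.51 with progesterone and 0.63 with DMSO.

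**Figure D3:**
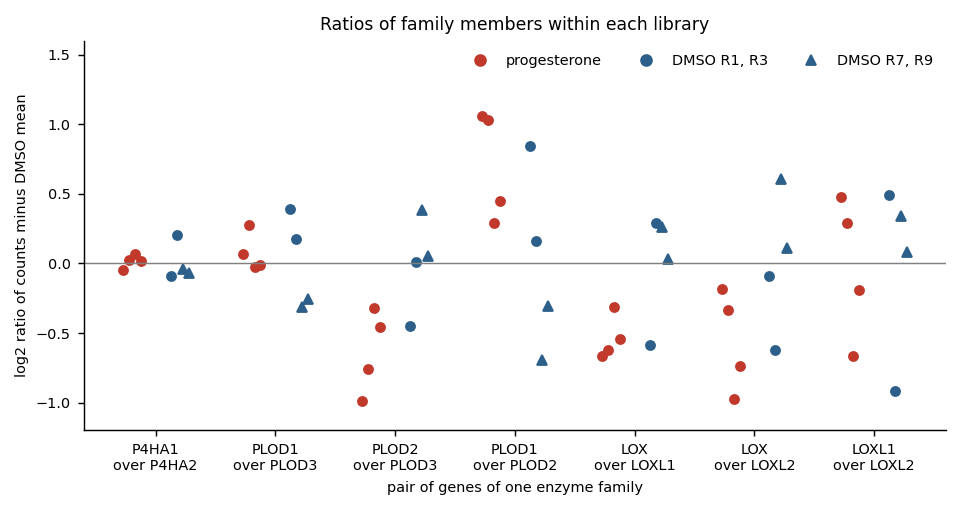
Log2 ratio of estimated counts of family members within each library, minus the DMSO mean of that ratio, for the 7 pairs without P4HA3. The ratio of P4HA1 to P4HA2 stays between -0.090 and 0.20 in all 8 libraries, whereas PLOD1 to PLOD2 runs from -0.70 in DMSO R7 to 1.06 in progesterone R1.

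Related genes, of collagen maturation, hypoxia, cofactor supply and the transforming growth factor beta response, were read from 7 lists. They held 90 genes, of which 88 were matched and 83 tested. Across the lists 2 rose (EPAS1 and FTL) and 2 fell (TFRC and POSTN), where 2.65% of all genes tested were called. All 4 came from the hypoxia, cofactor and transforming growth factor beta lists, and none from the collagen lists or LOXL3. EPAS1 passed without R7 and R9 and when any 1 library was left out. FTL, TFRC and POSTN did not pass without R7 and R9, nor when any of progesterone R1, R2, R3, R6 or DMSO R7, R9 was left out. The count of 4 was 1 in each of these cases, 13 without DMSO R1, where 13% of all genes were called, and 9 without DMSO R3, where 5.78% were.

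Of 19 tested genes listed for collagen modification, folding or export, 0 passed in edgeR. Some of them, such as P4HTM, PRKCSH and KDELR2, are not specific to collagen. The median log2 fold change was -0.12, and -0.057 without R7 and R9. DESeq2 called 1 of the 19, against 13.5% of all genes, limma voom 0, against 2.04%, and the unadjusted p was under 0.05 for 5, against 26.8%. P4HB, the disulfide isomerase that forms the prolyl hydroxylase with every P4HA subunit, was at 1484, 1453, 2043 and 1567 CPM with progesterone R1, R2, R3 and R6 and at 1591, 1907, 1974 and 1913 CPM with DMSO R1, R3, R7 and R9. The groups overlapped, and the log2 fold change was -0.17 (95% interval -0.46 to 0.11), and -0.083 without R7 and R9. SERPINH1, the collagen chaperone HSP47, was at 867, 885, 958 and 902 CPM with progesterone and at 989.7, 961, 1689 and 1740.2 CPM with DMSO. As for LOX, DMSO R7 and R9 were far above the other libraries. Its log2 fold change was -0.58 (edgeR adjusted p = 0.109), and -0.10 without R7 and R9. Of 7 tested genes of propeptide cleavage, 0 passed in edgeR, with a median of -0.18, and of -0.027 without R7 and R9. DESeq2 called 3 of the 7 and limma voom 0, and the unadjusted p was under 0.05 for 4, where over all genes these shares were 13.5%, 2.04% and 26.8%.

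A list of collagen chains and elastic fibre genes, which also held fibronectin (FN1), had 0 of 19 tested members past the threshold in edgeR. Not all of its members are substrates of these enzymes. In DESeq2 4 of the 19 were called (13.5% of all genes), in limma voom 0 (2.04%), and 7 had an unadjusted p under 0.05 (26.8%). Their median log2 fold change was -0.21, and -0.027 without R7 and R9. COL1A1, the major chain of type I collagen, was at 1851, 1647, 1780.1 and 1516 CPM with progesterone R1, R2, R3 and R6. In DMSO R1, R3, R7 and R9 it was at 2046, 1928, 6554 and 5295 CPM. Its partner COL1A2 was at 3597, 3225, 3283 and 2970.4 CPM with progesterone and at 4097, 4056, 6376 and 6652 CPM with DMSO. Neither gene overlapped between the groups, and for both the highest libraries were DMSO R7 and R9. No overlap was found for 4 of the 19 genes, against 16.2% of all genes tested. The log2 fold changes were -1.22 for COL1A1 and -0.70 for COL1A2 (edgeR adjusted p = 0.102 and 0.0627). Without R7 and R9 they were -0.21 and -0.31 (edgeR adjusted p = 0.368 and 0.192). COL3A1, the chain of type III collagen, was at 132 ± 71.5 CPM with progesterone and 238 ± 124 CPM with DMSO (SD, n = 4 each), with overlap. COL3A1 had a log2 fold change of -0.85 ± 0.50 (SE) with all libraries, and leaving out R7 and R9 gave -0.013.

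Of 20 hypoxia-inducible factors, oxygen sensors and targets, EPAS1 rose and 19 did not pass in edgeR, where 2.65% of all genes tested were called. The median log2 fold change was 0.10, and 0.028 without R7 and R9. DESeq2 called 2 of the 20 (13.5% of all genes) and limma voom 1 (2.04%). The unadjusted p was under 0.05 for 4 (26.8%). EPAS1, the hypoxia-inducible factor HIF-2 alpha, was at 422, 342, 434 and 359 CPM with progesterone R1, R2, R3 and R6 and at 194, 211, 181 and 153 CPM with DMSO R1, R3, R7 and R9. All progesterone libraries were above all DMSO libraries. Its log2 fold change was 1.07 ± 0.12 (SE, edgeR adjusted p = 0.00748), and 0.95 without R7 and R9 (0.00584). HIF1A, the other main oxygen-regulated subunit, was at 263, 251, 291 and 397 CPM with progesterone and at 198, 221, 213 and 227 CPM with DMSO. These groups did not overlap either, but HIF1A did not pass. No overlap was found for 4 of the 20 genes, against 16.2% of all genes tested. It had a log2 fold change of 0.49 ± 0.14 (SE, edgeR adjusted p = 0.0760) with all libraries, and leaving out R7 and R9 gave 0.54 (edgeR adjusted p = 0.176).

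Of 8 tested genes that supply the cofactors, 1 rose, 1 fell and 6 did not pass in edgeR, where 2.65% of all genes tested were called. The median log2 fold change was -0.047, and -0.045 without R7 and R9. DESeq2 called 3 of the 8 (13.5% of all genes) and limma voom 2 (2.04%). The unadjusted p was under 0.05 for 3 (26.8%). TFRC, the transferrin receptor that brings iron into cells, fell to 373 ± 9.01 CPM with progesterone, against 479.8 ± 21.6 CPM with DMSO (SD, n = 4 each). TFRC had a log2 fold change of -0.36 (edgeR adjusted p = 0.0406), and -0.34 without R7 and R9 (0.0907). FTL, the light chain of the iron store ferritin, rose to 848 ± 138 CPM with progesterone, against 572 ± 45.5 CPM with DMSO. Its log2 fold change was 0.57 (edgeR adjusted p = 0.0459), and 0.55 without R7 and R9 (0.0949). Of 9 tested genes of the transforming growth factor beta response, POSTN fell and 8 did not pass in edgeR. Their median log2 fold change was -0.17, and 0.11 without R7 and R9, so its sign turned. DESeq2 and limma voom each called 1 of the 9. The unadjusted p was under 0.05 for 2, against the same shares over all genes. POSTN, a matrix protein that binds collagen, was at 10.1, 9.08, 9.34 and 14.8 CPM with progesterone R1, R2, R3 and R6 and at 21.4, 18.8, 40.2 and 43.7 CPM with DMSO R1, R3, R7 and R9. Its log2 fold change was -1.52 (edgeR adjusted p = 0.0348), and -0.88 without R7 and R9 (0.0610).

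**Figure D4:**
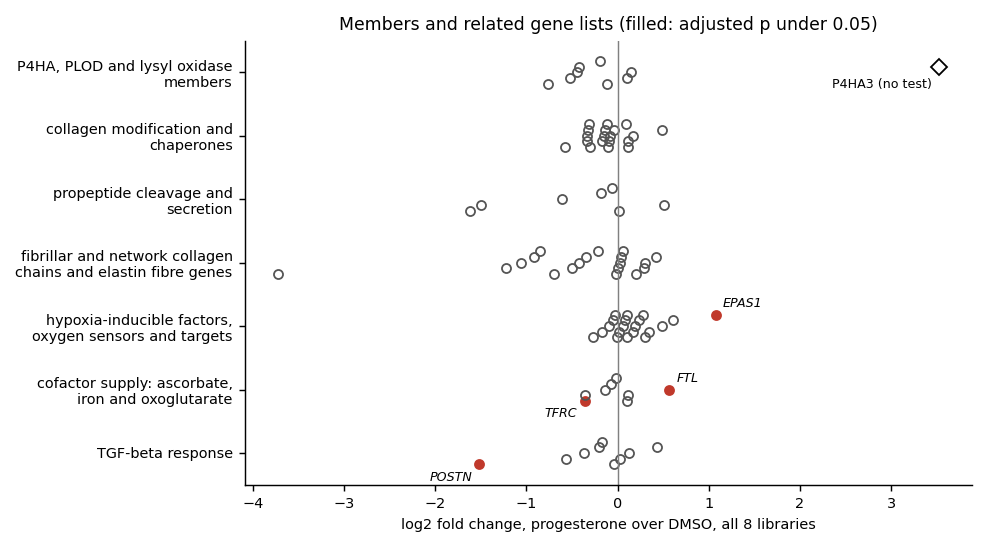
Log2 fold change, progesterone over DMSO with all 8 libraries, of the members and of 6 related lists, one point per tested gene. Filled points passed an adjusted p of 0.05, and P4HA3 is drawn as a diamond because it was chosen for this difference. The called genes are EPAS1 at 1.07, FTL at 0.57, TFRC at -0.36 and POSTN at -1.52.

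The genes next to the members were looked up in a reference gene table of another assembly, ARS-UCD2.0, for names and order only. The P4HA3 gene overlaps PPME1, a phosphatase methylesterase, and lies between C2CD3 and PGM2L1. PPME1 was at 48.6 ± 3.33 CPM with progesterone and 64.4 ± 10.2 CPM with DMSO (SD, n = 4 each), a log2 fold change of -0.41 (edgeR adjusted p = 0.0783), and of -0.24 without R7 and R9. C2CD3 and PGM2L1 had log2 fold changes of -0.31 (95% interval -0.73 to 0.10) and -0.53 (-0.97 to -0.09), and of 0.0016 and -0.22 without DMSO R7 and R9. With all libraries none of the 3 was higher on average with progesterone, unlike P4HA3, and C2CD3 turned sign when R7 and R9 were left out. P4HA2 overlaps PDLIM4, which encodes an actin-binding LIM protein and had a log2 fold change of 0.34 (edgeR adjusted p = 0.0794), opposite in sign to P4HA2. The sources used here do not give how reads of overlapping genes were assigned, although the library kit keeps strand. Of the neighbours tested, only DIPK2A, beside PLOD2, passed, at -0.49 (edgeR adjusted p = 0.0479). Over all genes tested, 2.65% were called. DIPK2A stood at -0.41 when R7 and R9 were left out, and its adjusted p in that fit is not given. As this was a lone call close to the threshold, nothing is concluded from it about the PLOD2 locus.

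Among tested genes, the 5 closest to P4HA3 in pattern were AGR2, SLC27A2, ABCA1, the uncharacterized LOC100847819 and ALDH8A1. Likeness was measured over the 8 libraries as the root mean square difference of log2 CPM, each gene centred on its own mean. It was 0.59 for AGR2, a disulfide isomerase of the secretory pathway, and 0.90 to 1.04 for the others. AGR2 was at 2.02, 1.59, 2.63 and 3.47 CPM with progesterone R1, R2, R3 and R6 and at 0.171, 0.0367, 0.373 and 0.529 CPM with DMSO R1, R3, R7 and R9. Like P4HA3, AGR2 was lowest in R2 among the progesterone libraries, but it was highest in R6, and P4HA3 in R1. SLC27A2 and ALDH8A1 were also lowest in R2, and ABCA1 and LOC100847819 were not. The DMSO levels of AGR2 rest on 5.02, 1.00, 11.1 and 13.6 estimated counts in R1, R3, R7 and R9, the second of them under 3 counts. No order among these libraries is read from them, and the likeness of AGR2 to P4HA3 rests in part on these counts. The same holds for SLC27A2 and ALDH8A1, with at most 8.04 and 13.8 estimated counts in a DMSO library. ABCA1, the cholesterol exporter, had the opposite order to P4HA3 in DMSO, at 58.0 and 37.2 CPM in R1 and R3 and 23.8 and 19.7 CPM in R7 and R9. The rule picks genes with a large difference between the groups, so their increase is no separate result.

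**Figure D5:**
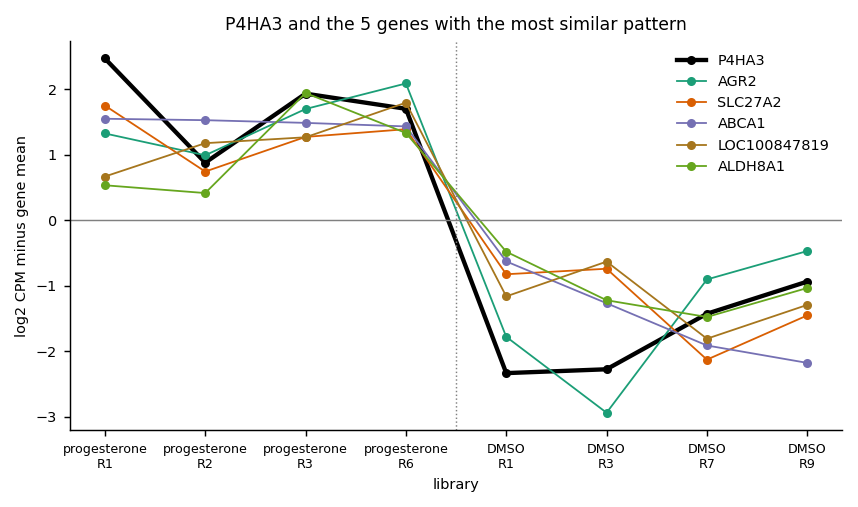
Log2 CPM minus the gene's mean over the 8 libraries, for P4HA3 (thick black) and the 5 tested genes nearest to it by root mean square difference; the lines only guide the eye. P4HA3 is higher in DMSO R7 and R9 than in DMSO R1 and R3, whereas ABCA1 is lower there. The DMSO points of AGR2 (0.59), SLC27A2 and ALDH8A1 rest on at most 13.6, 8.04 and 13.8 counts.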

How the data were processed

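The authors deposited 1 table of estimated counts per gene, not whole numbers, whose name gives length normalization. Salmon 1.4.0, bcl2fastq and the bovine assembly ARS-UCD1.2 are listed, without their roles, in the submitters' processing notes. Libraries were made from total RNA with a stranded mRNA kit, per the labels' protocols. Column names give the group but not the sample. No 2 columns of a group agreed within sampling noise (chi-square per degree of freedom 14.9 to 137).

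Estimated counts were rounded, kept by filterByExpr (13557 genes; 13764 without DMSO R7 and R9), scaled by TMM and tested with edgeR 4.0.16 (quasi-likelihood, robust, two-sided, group as the only term) in R 4.3.3. Benjamini-Hochberg adjustment covered every tested gene, and 0.05 was the threshold. CPM are TMM-scaled, and log2 CPM used a prior count of 2. The standard error is the log2 fold change over the square root of F. Alternatives included DESeq2 1.42.0 and limma 3.58.1 voom. On simulated data with 200 of 13557 genes changed, 67% of 1.5-fold and 89% of 2-fold changes were recovered, with 8 false calls. DMSO R7 and R9 were simulated without their distance from R1 and R3.

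The members and lists were chosen with earlier results of these data known. Named genes are all members, list members past the threshold, 8 preset genes and the 5 nearest patterns to P4HA3. DIPK2A, PPME1, C2CD3, PGM2L1 and PDLIM4 were named as neighbours. P3H3 and CCN2 were not matched and are not analysed here. Transcript lengths were not used here, so levels are not compared between genes.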

Additional observations from a re-analysis of the deposited data

How the results depend on the processing

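The 359 genes called became 1830 with DESeq2, 27 at an adjusted p under 0.01, 162 without DMSO R7 and R9, 2531 with the replicate block, and 42 to 1782 when 1 library was left out. Beside these totals over all genes, 0 of the 8 tested members other than P4HA3 were called as planned. This count became 1 with library size only, 1 with upper-quartile factors, 3 with DESeq2 and 5 with the replicate block. It was 0 to 3 when 1 library was left out. The 4 called genes of the related lists became 14 with DESeq2, 1 at 0.01, 1 without R7 and R9, 2 with a model term for these libraries, 23 with the replicate block and 1 to 13 when 1 library was left out. PLOD1 turned to -0.12 without R7 and R9, -0.14 with the model term and -0.042 with the block. LOXL1 turned to 0.087, 0.073 and 0.12 in the same settings, and LOXL2 to 0.012 with the block. The cause was not tested. P4HA3 stayed between 3.24 and 4.61 in all 21 alternatives.

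For the block, column numbers 1 and 3 occur in both groups; deviations of the same-numbered libraries correlated at 0.226 and 0.21. With 2 shared numbers this does not show pairing, and the fit leaves 1 residual degree of freedom. This fit called 5 of the 8 members other than P4HA3, and 2531 of the 13557 genes tested. The edgeR adjusted p was 9.64e-05 for P4HA1, 0.00130 for P4HA2, 0.01705 for PLOD2 and 0.0370 for LOX, all lower with progesterone. PLOD3, with an edgeR adjusted p of 0.0133, was higher, at 0.22. Shares of each member in its family per transcript length were planned and not run. LOXL4, under 3 counts in all libraries, is where depth limits precision. P4HA3 had 32.5 to 84.0 counts with DMSO and 287 to 1127 with progesterone. Its highest library was 2.74 times the lowest with DMSO and 3.03 times with progesterone. The part of depth in this spread was not tested.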
